A study of Rattus norvegicus with 12 samples.

Results

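The genes described here encode the machinery that brings secretory proteins into the endoplasmic reticulum and carries them onward in coated vesicles. They comprise the signal recognition particle and its receptor, the Sec61 translocon with its partners, the TRAP complex, signal peptidase, the COPII and COPI vesicle coats, the Sec22 SNAREs and the p24 (Tmed) cargo receptors. The set was proposed with earlier results of these data known, but the rule itself reads gene symbols and no measured value. It takes probe sets annotated with 1 gene symbol beginning with Sec or Ssr or Srp and a digit, or with Spcs or Tmed, together with the coatomer genes, Arcn1, Tram1, Srpr and Srprb, and without Ssrp1. The rule found 52 genes, on 54 probe sets, among 14506 genes on 29214 probe sets. Srp72 had 3 probe sets and every other member 1, and the probe set with the highest mean over all arrays stood for the gene. Because the rule reads letters, it also took Sec14l1 to Sec14l5, which belong to a family of lipid-binding proteins and not to the translocon. Spcs2, Spcs3, Srpr, Sec16a, Sec23b, Sec24c and Tmed10 are among the genes of the same complexes that were not analysed here.

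The samples were ventral prostates of male Wistar rats, treated at 90 days of age and taken 3 days later, with 3 arrays in each of 4 groups. Control rats were intact and received the corn oil vehicle, castrated rats lost both testes under anaesthesia with ketamine (150 mg/kg) plus xylazine (10 mg/kg), estradiol rats were intact and were given 17β-estradiol once (25 mg/kg, in corn oil), and the combined group was both castrated and dosed. Whether rats that were castrated without estradiol also received corn oil is not stated, and anaesthesia is listed for the 2 castrated groups alone, so loss of the testes cannot be told apart from the operation or the anaesthetics. The design text speaks of 48 rats, and which animals an array represents is not stated. The p-values therefore reflect spread between arrays, part of which may be technical.

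A protein bound for secretion is recognised by its signal sequence as it leaves the ribosome. The signal recognition particle binds that sequence and docks at its receptor, the chain passes through the Sec61 channel with help from TRAP, and signal peptidase removes the signal. COPII-coated vesicles then carry cargo from the endoplasmic reticulum towards the Golgi, and COPI-coated vesicles return resident proteins and receptors. The ventral prostate is a gland whose epithelium secretes large amounts of protein under the control of testicular androgen.

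Promoter sequences are shown first, because the lists below include transcription factors that act on secretory pathway genes and the motifs those factors are known to bind can be read directly. RefSeq windows of 300 bases (250 before to 50 after the annotated start, rat build GRCr8) were found for 47 of the 52 members, and Sec14l4, Sec24d, Sec61a1, Sec61a2 and Tram1 had none. The UPRE core, TGACGTGG, on either strand, was found in 5 of the 47 windows (10.6%), those of Copa, Copb1, Copb2, Sec23a and Srp19, against 0.595% of 33469 windows of all genes. The 5 windows are shown around the match, on the strand of the gene, with the match in capitals. On the minus strand of a gene the motif reads CCACGTCA.

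Copa (chr13:87078887-87078916, + strand): cctggggtagcTGACGTGGagcctttggga
Copb1 (chr1:177872821-177872940, - strand): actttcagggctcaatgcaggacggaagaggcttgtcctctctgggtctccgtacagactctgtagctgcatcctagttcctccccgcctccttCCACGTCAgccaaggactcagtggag
Copb2 (chr8:108040587-108040706, + strand): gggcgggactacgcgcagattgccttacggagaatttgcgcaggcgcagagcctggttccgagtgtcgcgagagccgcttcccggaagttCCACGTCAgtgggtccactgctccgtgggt
Sec23a (chr6:82440885-82441035, - strand): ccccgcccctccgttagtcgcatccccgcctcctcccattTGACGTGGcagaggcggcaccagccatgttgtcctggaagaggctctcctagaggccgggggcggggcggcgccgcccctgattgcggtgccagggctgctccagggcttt
Srp19 (chr18:26205693-26205812, + strand): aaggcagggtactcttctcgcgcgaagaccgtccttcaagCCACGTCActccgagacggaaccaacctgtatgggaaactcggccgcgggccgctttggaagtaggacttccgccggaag

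In Copb1 and Copb2 the match lay at the start site, from 6 bases before it to 2 after it and from 10 to 3 bases before it. With all 12 arrays none of these 5 genes passed the test against control in any treatment. Of the 17 members that passed and had a window 0 held the UPRE core, and of the 30 others 5 did (16.7%). This split depends on the arrays kept. Without estradiol arrays 1 and 2, described below, Copa passed after castration and after both, and Srp19 after castration. Copa read 9.87 to 9.95 after castration against 10.32 to 10.39 in controls. The shorter letters CCACG, which every UPRE match contains, occurred in 29 member windows (61.7%) against 31.6% of all windows, in 10 of the 17 that passed (58.8%) and in 19 of the 30 others (63.3%). Members that passed are shown by 3 windows that hold CCACG without a UPRE core, again with matches on either strand in capitals.

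Srprb (chr8:112661505-112661598, - strand): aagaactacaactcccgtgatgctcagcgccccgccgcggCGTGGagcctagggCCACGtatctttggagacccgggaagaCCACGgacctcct
Ssr3 (chr2:151935288-151935407, - strand): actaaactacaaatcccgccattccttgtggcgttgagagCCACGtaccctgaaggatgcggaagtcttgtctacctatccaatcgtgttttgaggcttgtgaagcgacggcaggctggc
Sec11c (chr18:61590658-61590777, + strand): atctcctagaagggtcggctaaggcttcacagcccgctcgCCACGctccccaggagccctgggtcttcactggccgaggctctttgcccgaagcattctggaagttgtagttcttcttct

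The longer elements ERSE (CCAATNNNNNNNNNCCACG) and ERSE-II (ATTGGNCCACG) were found in 0 of the 47 member windows, and in 0.0657% and 0.0508% of all windows. Base composition moved with these shares: the median G and C content was 59.7% in member windows and 51.7% in all windows, and its part in them was not tested. A match describes letters in this window and does not show that a factor binds there.

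The arrays limited the precision, with 3 in each group and a median standard error of 0.20 for a difference over all genes (log2 scale, on which 1 unit is a 2-fold change). Estradiol arrays 1 and 2 stood apart: the SD of their values over all probe sets was 1.93 and 2.01, against 2.24 to 2.30 on the other arrays. Estradiol array 3 differed in another way. It carried Semg1 and Msmb, secreted proteins of accessory glands, at 9.46 and 8.47, where the other 11 arrays had 2.62 to 3.43 and 3.54 to 4.18. Probasin (Pbsn), an androgen-driven product of the prostate epithelium, lay between 10.50 and 11.63 in controls, a check for prostate tissue but not for its lobe. It was at 9.71 on estradiol array 3 against 6.28 and 4.82 on arrays 1 and 2. Results on estradiol are given with all 3 arrays. Wherever leaving out arrays 1 and 2 ended a call after estradiol or turned the sign of a value printed here, for members and pathway genes, the value without them is given too. Unless stated otherwise, a gene is said to pass with all 12 arrays. Leaving arrays 1 and 2 out also added calls after castration and after both, and not all of these are named.

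Over all 52 members, the mean level per array was 8.96 to 8.99 in controls. It was 8.48 to 8.58 after castration, 8.17, 8.47 and 8.67 after estradiol, and 8.46 to 8.54 after the combined treatment. Every treated array lay below every control array, and the estradiol arrays were spread the most. In whole tissue, fewer cells of a type and less RNA per cell cannot be told apart.

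After castration 12 of the 52 members fell and 0 rose, where 2.36% of all genes fell, 3.17% rose and 5.54% were called in either direction (limma, adjusted p under 0.05 over all genes). The median difference of the members was -0.44, against 0.01 over all genes. After estradiol 16 fell and 0 rose (5.48% of all genes fell, 2.51% rose and 7.99% were called), with a median of -0.56 against 0.07. After the combined treatment 13 fell and 0 rose (2.21% fell, 2.12% rose and 4.32% were called), with a median of -0.50 against 0.04. All 3 comparisons use the same control arrays and so are not independent of each other. All 3 arrays of the group lay below all 3 controls in 32, 34 and 39 members for castration, estradiol and both (13.7%, 15.1% and 15.8% of all genes), and above them in 3, 2 and 3 (18.8%, 12.3% and 21.1%).

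In all, 20 members passed in at least 1 comparison with control and 32 in none, and a moderated F test over the 4 groups called 12 members (5.47% of all genes). In all 3 comparisons 8 members passed: Cope, Sec11c, Sec24d, Sec61g, Srprb, Ssr1, Ssr3 and Ssr4. Passing went with brightness. All 20 were among the 38 members that belong to the top 25% of genes by mean level, and 0 of the 14 dimmer members passed. Within these brightest genes 4.88%, 11.7% and 4.66% of all 3627 genes fell after castration, estradiol and both, with medians of 0.04, -0.29 and 0.01.

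**Figure D1:**
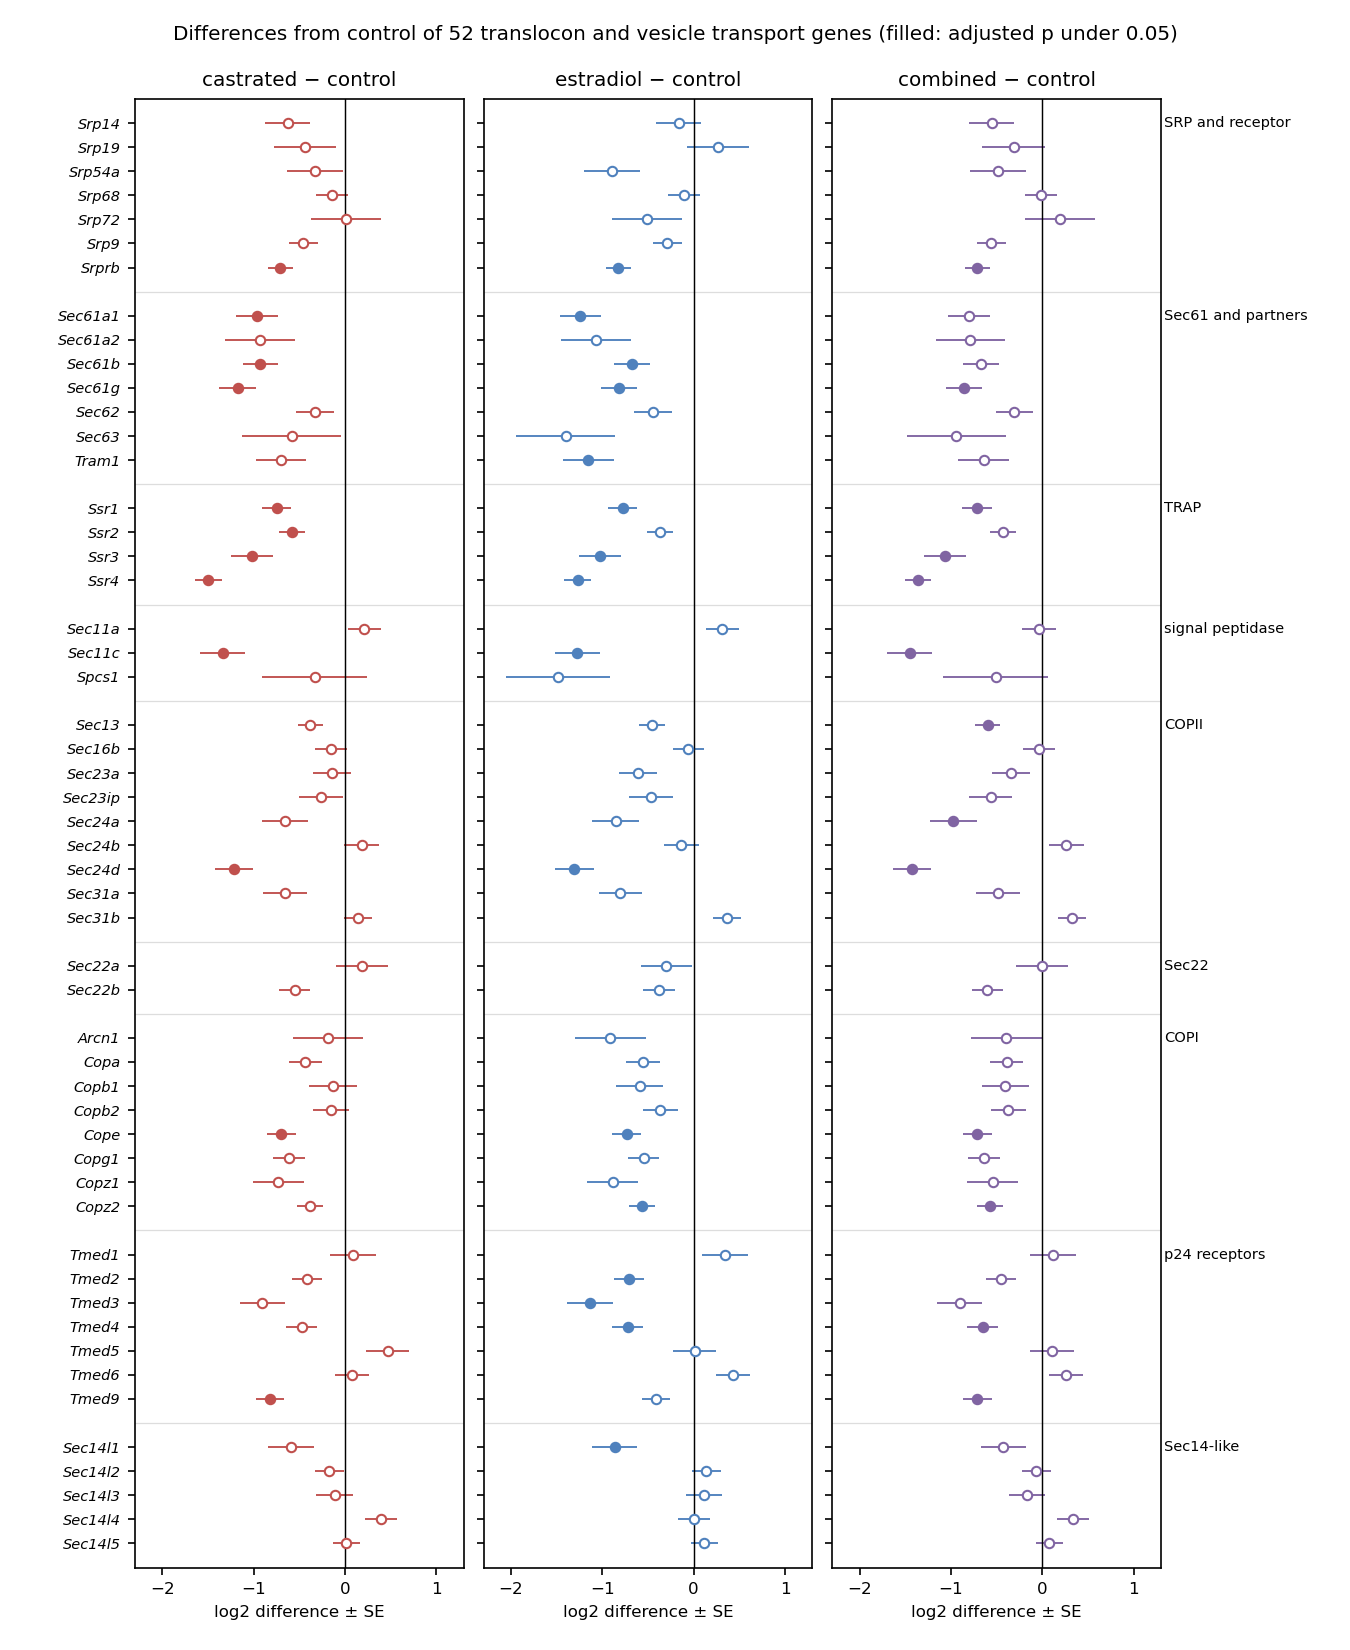
Log2 difference from control ± SE (horizontal axis) of all 52 members, grouped by role, after castration, estradiol and both (3 arrays per group, limma); filled points passed at an adjusted p under 0.05. Filled points lie left of 0 in every panel, 12, 16 and 13 of them, and the TRAP complex has passing members in each panel.

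Counts depended on single arrays. Without control 1, 2 or 3 the members that fell numbered 6, 6 and 7 after castration, 6, 5 and 5 after estradiol, and 4, 3 and 3 after both. The shares of all genes called in either direction were then 3.2%, 2.49% and 2.75%, 2.98%, 2.69% and 2.98%, and 2.67%, 1.83% and 2.06%. Without estradiol array 1, 24, 20 and 28 members fell after castration, estradiol and both, at 12.3%, 8.71% and 10.2% of all genes called. Without estradiol array 3 the falls numbered 16, 32 and 16, with 2 rises after estradiol, at 7.85%, 36.7% and 6.2% of all genes called. Without combined array 1, 2 or 3 the fall after both treatments was called in 4, 6 and 3 members (1.99%, 3.05% and 1.9% of all genes called). Both the members' counts and the shares of all genes thus moved with the arrays kept.

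Of the signal recognition particle and its receptor, 1 of 7 measured members fell in each comparison, the same gene, Srprb. Srprb encodes the membrane-anchored GTPase subunit of the receptor, and its promoter window is printed above. It measured 9.43, 9.57 and 9.61 in controls, 8.81, 8.85 and 8.83 after castration, 8.70, 8.57 and 8.88 after estradiol, and 8.90, 8.80 and 8.78 after both. No treated array overlapped the controls, and the treated groups lay close together. The differences were -0.71, -0.82 and -0.71 (each SE 0.14; 1.63-, 1.77- and 1.64-fold lower; adjusted p = 0.00771, 0.00309 and 0.00855).

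With all arrays the RNA-binding proteins of the particle did not pass. Without estradiol arrays 1 and 2, Srp14 and Srp9 passed after castration and after both, Srp19 after castration and Srp54a after both. Srp54a, the GTPase that holds the signal sequence, had differences of -0.33, -0.89 and -0.48 (SE 0.31), and close copies of this gene may share its probes, which was not checked. After estradiol Srp54a read 8.54 on array 1 against 10.04 and 10.07 on arrays 2 and 3, and had -0.37 without arrays 1 and 2. Srp14 and Srp9, which form the end of the particle that slows the ribosome, had -0.63 and -0.46 after castration, -0.16 and -0.29 after estradiol, and -0.55 and -0.56 after both. Srp14 read 8.26 on estradiol array 1 and 7.05 and 7.16 on arrays 2 and 3, against 7.55 to 7.85 in controls. Its difference after estradiol was 0.05 with quantile normalization and -0.50 without arrays 1 and 2. Srp68 and Srp72 form a pair on the other end. Srp68 stayed within 0.15 of control in each group mean (-0.15, -0.11 and -0.01), with 0.06 after estradiol without arrays 1 and 2. Srp72 measured 8.85 on estradiol array 1 and 10.54 to 10.99 on the other 11 arrays, so that its difference of -0.51 rests on that array and became 0.33 without arrays 1 and 2. Its other probe sets also had lower means after estradiol, 9.14 and 9.13 against 9.73 and 9.67 in controls. Srp19, which helps the particle assemble and carries a UPRE core, was set apart by the same array, at 8.98 against 7.06 to 7.69 elsewhere, and its difference turned from 0.27 to -0.58 without arrays 1 and 2.

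All 7 measured genes of the Sec61 translocon and its partners had negative differences in every comparison, and 3, 4 and 1 of them fell after castration, estradiol and both. Their medians were -0.93, -1.07 and -0.79. Sec61a1 encodes the channel itself. Its controls read 11.78, 11.71 and 11.72, the castrated arrays 10.93, 10.42 and 10.97, the estradiol arrays 9.99, 10.48 and 11.01, and the combined arrays 11.07, 10.91 and 10.81. All treated arrays were lower than all controls, with the widest spread after estradiol. Sec61a1 fell by 0.97 ± 0.23 (SE) after castration and by 1.24 ± 0.23 after estradiol (adjusted p = 0.024 and 0.00597, limma), and its difference of -0.80 after both had an adjusted p of 0.0693. Without estradiol arrays 1 and 2 the call after estradiol ended (-0.72, adjusted p = 0.0687) and the combined difference passed (-0.80, adjusted p = 0.00352). The paralog Sec61a2, also a channel subunit, had differences of -0.93, -1.07 and -0.79 (SE 0.38) and passed in none with all arrays. Without estradiol arrays 1 and 2 it passed after castration and after both, and had -0.26 after estradiol. It read 7.80 to 8.01 in controls, 6.97 to 7.04 after castration and 7.07 to 7.20 after both, and 5.57, 7.36 and 7.68 after estradiol, so no treated array reached the controls and estradiol array 1 lay far below the rest.

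The small subunits of the channel, Sec61b and Sec61g, changed in a like range. Sec61g measured 10.76, 10.35 and 10.55 in controls, 9.36, 9.16 and 9.60 after castration, 10.06, 9.31 and 9.83 after estradiol, and 9.63, 9.78 and 9.66 after both. None of the treated arrays reached the lowest control. It fell by 1.18 (2.26-fold), 0.82 (1.76-fold) and 0.86 (1.81-fold), with adjusted p = 0.0032, 0.0251 and 0.0246, and after estradiol without arrays 1 and 2 it had -0.72 (adjusted p = 0.0579). Sec61b went from 10.69, 10.71 and 10.60 to 9.77, 9.46 and 9.98 after castration, 10.35, 9.59 and 10.02 after estradiol, and 10.13, 9.91 and 9.93 after both, again without overlap. It fell by 0.93 after castration (adjusted p = 0.0125) and by 0.68 after estradiol (adjusted p = 0.049), and its difference of -0.67 after both did not pass (adjusted p = 0.074). With estradiol arrays 1 and 2 left out the value after estradiol was -0.65 and did not pass (adjusted p = 0.0751), while the combined difference passed (adjusted p = 0.00591).

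Tram1, a membrane protein that lies beside the channel and contacts the entering chain, read 11.88, 11.85 and 11.81 in controls. The castrated arrays were at 10.99, 11.28 and 11.16, the estradiol arrays at 9.82, 11.02 and 11.25, and the combined arrays at 11.22, 11.27 and 11.13. Every treated array was lower than the controls, but only the fall after estradiol passed (-1.15 ± 0.28, adjusted p = 0.0242). When estradiol arrays 1 and 2 were left out its difference after estradiol was -0.60 (adjusted p = 0.0384), and it also fell after castration (-0.70, adjusted p = 0.000925) and after both (-0.64, adjusted p = 0.00193). Sec63, whose luminal domain recruits the chaperone Hspa5 to the channel, had differences of -0.58, -1.40 and -0.94 (SE 0.54) and passed in none. Castrated array 2 at 10.44 lay above all controls (10.20 to 10.34), while the other castrated arrays were at 9.27 and 9.41. Sec62, the partner of Sec63 in passing chains after translation, had -0.33, -0.44 and -0.30.

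The TRAP complex, a 4-subunit assembly bound to the channel that helps some signal sequences open it, had the largest share of members called. All 4 subunits fell after castration, and 3 of 4 fell after estradiol and after both, Ssr2 being the exception. Ssr4, the delta subunit, measured 11.34, 11.17 and 11.19 in controls, 9.58, 9.85 and 9.78 after castration, 10.15, 9.77 and 9.97 after estradiol, and 9.82, 9.94 and 9.86 after both. The gap between the lowest control and the highest treated array was the widest among the TRAP subunits, and the treated groups overlapped. Ssr4 fell 2.82-, 2.41- and 2.57-fold (log2 -1.50, -1.27 and -1.36, each SE 0.15; adjusted p = 4.96e-05, 0.000248 and 0.000115). It kept these calls in all 21 alternative settings run for each comparison.

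Ssr3, the gamma subunit, read 9.90, 10.04 and 9.82 in controls, 8.63, 9.31 and 8.76 after castration, 8.46, 8.79 and 9.43 after estradiol, and 8.86, 8.84 and 8.87 after both. Treated arrays lay below the controls in each group, with 1 higher array after castration and 1 after estradiol. It fell by 1.02, 1.02 and 1.06 (SE 0.23; adjusted p = 0.0196, 0.018 and 0.0183). The call after estradiol ended without arrays 1 and 2, at -0.49 (adjusted p = 0.275). Ssr1, the alpha subunit, went from 10.08, 10.08 and 10.13 to 9.45, 9.18 and 9.41 after castration, 9.0, 9.39 and 9.58 after estradiol, and 9.39, 9.40 and 9.37 after both. It fell by 0.75, 0.78 and 0.72, or 1.68-, 1.71- and 1.64-fold (adjusted p = 0.0142, 0.0114 and 0.0215), and had -0.52 after estradiol without arrays 1 and 2 (adjusted p = 0.0599). Ssr2, the beta subunit, had 11.22, 11.20 and 11.28 in controls, 10.63, 10.59 and 10.72 after castration, 10.79, 10.75 and 11.05 after estradiol, and 10.90, 10.89 and 10.61 after both. It was lower on every treated array, yet with all arrays passed after castration alone (-0.58, adjusted p = 0.0285), with -0.37 and -0.43 in the other comparisons (adjusted p = 0.111 and 0.128). Without estradiol arrays 1 and 2 the -0.43 after both passed, and the difference after estradiol was -0.18.

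Among the measured genes of signal peptidase the 2 catalytic subunits differed from each other. Sec11c, whose promoter window is printed above, fell in all 3 comparisons, and Sec11a in none. Sec11c measured 11.25, 11.29 and 11.16 in controls, 9.52, 10.34 and 9.81 after castration, 9.44, 10.45 and 9.98 after estradiol, and 9.61, 9.96 and 9.76 after both. No treated array came near the controls, and the second array was the highest in each treated group. The falls were 1.34, 1.27 and 1.45 (SE 0.25), or 2.53-, 2.42- and 2.73-fold (adjusted p = 0.00593, 0.0081 and 0.00381).

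Sec11a, in contrast, read 9.41 to 9.49 in controls, 9.43, 10.06 and 9.47 after castration, 9.62, 9.99 and 9.67 after estradiol, and 9.27, 9.56 and 9.40 after both. Its estradiol arrays lay above the controls and its other groups overlapped them. The differences were 0.21, 0.31 and -0.03 (SE 0.18), and none passed (adjusted p = 0.727, 0.249 and 0.99). The difference between the 2 genes was not itself tested. Spcs1, a small subunit without catalytic activity, had 12.78 to 12.81 in controls and 12.16 to 12.55 on all treated arrays except estradiol array 1, at 9.29. It did not pass (-0.33, -1.49 and -0.51, SE 0.57). Without estradiol arrays 1 and 2 the same gene fell by 0.33 after castration and by 0.51 after both (adjusted p = 0.0381 and 0.0051).

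**Figure D2:**
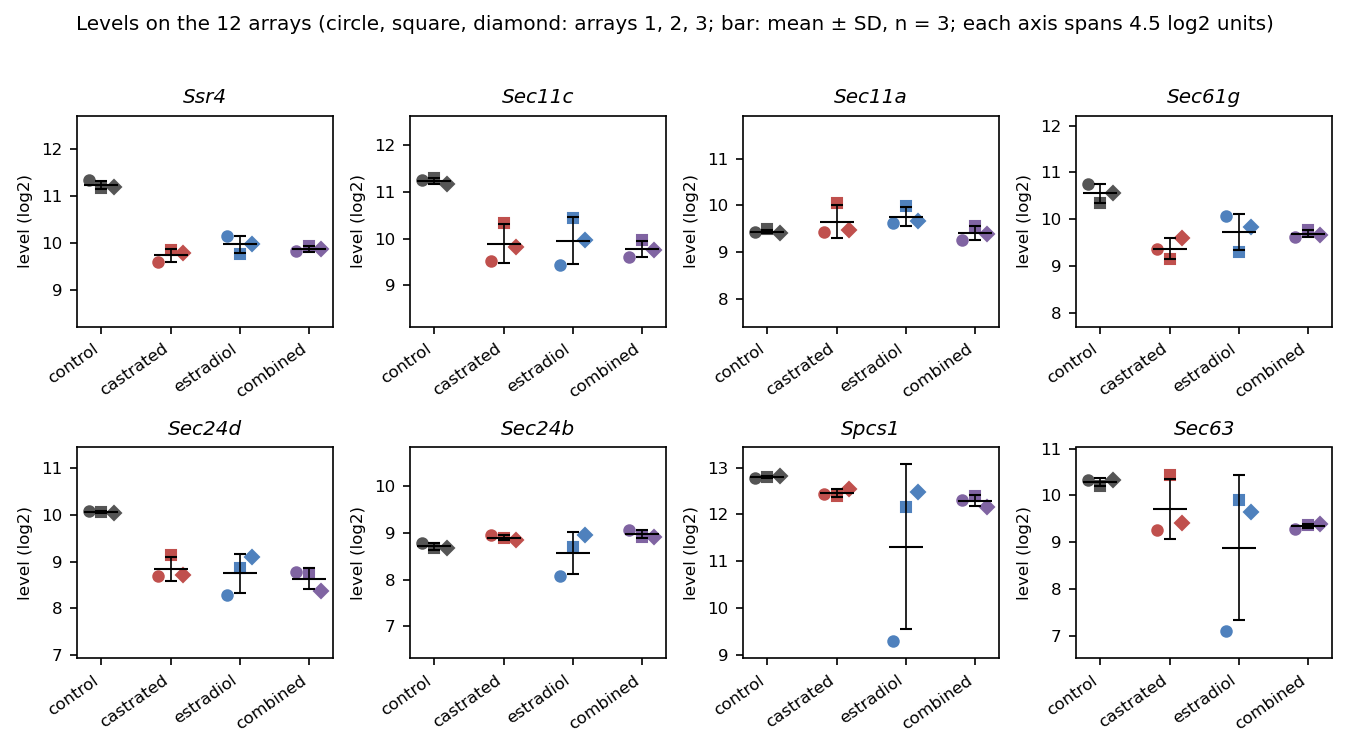
Level on each of the 12 arrays (log2, vertical axis, each panel spanning 4.5 units) of 8 members; circles, squares and diamonds are arrays 1, 2 and 3 of a group, and bars give the mean ± SD (n = 3). Ssr4, Sec11c, Sec61g and Sec24d lie below the controls on all 9 treated arrays, their paralogs Sec11a and Sec24b overlap or exceed the controls on most arrays, and estradiol array 1 sets the spread of Spcs1 and Sec63.

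Of the COPII coat and its regulators, 9 members were measured, and 1, 1 and 3 fell after castration, estradiol and both. Sec24 proteins are the cargo-binding part of the inner coat, and the 3 measured paralogs had unlike values. Sec24d read 10.09, 10.06 and 10.03 in controls, 8.69, 9.14 and 8.71 after castration, 8.29, 8.86 and 9.11 after estradiol, and 8.77, 8.76 and 8.37 after both. All treated arrays were well below all controls. It fell 2.32-, 2.47- and 2.68-fold (log2 -1.21, -1.31 and -1.42, SE 0.21; adjusted p = 0.00388, 0.00276 and 0.00134).

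Sec24a had 10.70, 10.73 and 10.57 in controls, 9.90, 10.31 and 9.82 after castration, 9.08, 10.12 and 10.22 after estradiol, and 9.78, 9.72 and 9.57 after both. It was lower on all treated arrays and passed after the combined treatment (-0.97, adjusted p = 0.047), with -0.66 and -0.86 after castration and estradiol (adjusted p = 0.188 and 0.0547). Sec24b read 8.67 to 8.79 in controls, 8.84 to 8.95 after castration, 8.92 to 9.07 after both, and 8.08, 8.69 and 8.95 after estradiol. Its castrated and combined arrays lay above all controls, with differences of 0.18 and 0.26 that did not pass (adjusted p = 0.806 and 0.669), and its difference after estradiol turned from -0.14 to 0.24 without arrays 1 and 2. The differences between the paralogs were not tested.

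The outer COPII cage is built from Sec13 and Sec31. Sec13 measured 9.13, 8.99 and 9.08 in controls, 8.71, 8.80 and 8.55 after castration, 8.68, 8.60 and 8.55 after estradiol, and 8.37, 8.61 and 8.42 after both. It was lower on all treated arrays and fell after both (-0.60 ± 0.14, adjusted p = 0.0238), while -0.38 and -0.46 did not pass. Sec31a had -0.66, -0.80 and -0.48 (SE 0.24; adjusted p = 0.153, 0.057 and 0.389), and Sec31b, its dim paralog at 4.13 to 4.87, had 0.14, 0.36 and 0.32. Sec23a, the GTPase activator of the inner coat and a gene with a UPRE core, had -0.14, -0.61 and -0.35 (SE 0.21). Sec23ip, which binds Sec23, had -0.27, -0.47 and -0.57, and Sec16b, a scaffold of exit sites, had -0.15, -0.06 and -0.04, the value after estradiol being 0.04 without arrays 1 and 2. None of these passed.

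All 8 measured COPI coat genes had negative differences in all 3 comparisons, but 1, 2 and 2 of them fell. Cope, the epsilon subunit, read 8.85, 8.81 and 8.97 in controls, 8.27, 7.97 and 8.29 after castration, 8.24, 7.88 and 8.30 after estradiol, and 8.23, 8.22 and 8.05 after both. Its treated groups were nearly superimposed and separate from the controls. It fell by 0.70, 0.74 and 0.71 (SE 0.16; adjusted p = 0.0192, 0.0143 and 0.0204), and without estradiol arrays 1 and 2 had -0.58 after estradiol (adjusted p = 0.0694).

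The zeta subunit has 2 genes. Copz2 measured 10.74, 10.85 and 10.73 in controls, 10.37, 10.36 and 10.43 after castration, 10.06, 10.17 and 10.38 after estradiol, and 10.17, 10.37 and 10.05 after both, with no overlap. It fell by 0.57 after estradiol and by 0.58 after both (adjusted p = 0.03 and 0.037), and had -0.39 after castration (adjusted p = 0.164). With estradiol arrays 1 and 2 left out its value after estradiol was -0.40 (adjusted p = 0.174). Copz1 had -0.73, -0.89 and -0.54 with a wider error (SE 0.28) and did not pass (adjusted p = 0.176, 0.0647 and 0.411). Castrated array 2 and estradiol array 2 were its lowest, at 8.11 and 7.70, against 8.70 to 8.87 on the other treated arrays.

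With all arrays the other COPI subunits did not pass. Without estradiol arrays 1 and 2, Copg1 and Copa passed after castration and after both, and Copz1 and Copz2 also after castration. Copg1, the gamma subunit, had -0.61, -0.55 and -0.63 (SE 0.17; adjusted p = 0.0571, 0.0665 and 0.0574), close to the threshold in each comparison. Copa, the alpha subunit, had -0.43, -0.56 and -0.39, and the beta subunits Copb1 and Copb2 had -0.13 and -0.15 after castration, -0.59 and -0.36 after estradiol, and -0.40 and -0.37 after both. These last 3 are the COPI genes whose promoter windows hold a UPRE core. Arcn1, the delta subunit, read 8.63 on estradiol array 1 and 10.36 to 10.97 on the other 11 arrays, and its difference of -0.91 after estradiol became -0.23 without arrays 1 and 2.

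The p24 proteins, encoded by Tmed genes, are membrane receptors that select cargo for vesicles in both directions. Of 7 measured, 1, 3 and 2 fell after castration, estradiol and both. Tmed3 read 8.73, 8.75 and 8.81 in controls, 7.86, 7.70 and 8.02 after castration, 7.93, 6.90 and 8.06 after estradiol, and 7.93, 8.03 and 7.63 after both. All treated arrays were lower than all controls. It fell by 1.13 ± 0.25 after estradiol (adjusted p = 0.0159), and its differences of -0.91 and -0.90 lay just short of the threshold (adjusted p = 0.0509 and 0.0603).

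Tmed9 had 9.61, 9.74 and 9.57 in controls, 8.81, 8.90 and 8.74 after castration, 9.48, 8.96 and 9.24 after estradiol, and 9.01, 8.98 and 8.79 after both. It fell after castration (-0.82 ± 0.16, adjusted p = 0.00721) and after both (-0.71, adjusted p = 0.0191), and had -0.41 after estradiol (adjusted p = 0.106). Tmed4 read 9.53, 9.61 and 9.57, then 8.98, 9.22 and 9.09, then 8.57, 8.79 and 9.19, then 8.97, 9.06 and 8.72 in the same order of groups, without overlap with the controls. It fell by 0.72 after estradiol and by 0.65 after both (adjusted p = 0.0235 and 0.0488), and had -0.48 after castration. After estradiol without arrays 1 and 2 it had -0.38 and no longer passed (adjusted p = 0.234). Tmed2 went from 11.85, 11.91 and 11.75 to 11.37, 11.48 and 11.40, to 10.74, 11.27 and 11.36, and to 11.37, 11.44 and 11.35. It fell by 0.71 after estradiol (adjusted p = 0.0201), and -0.42 and -0.45 did not pass, nor did -0.48 after estradiol without arrays 1 and 2 (adjusted p = 0.065).

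With all arrays and the values as deposited, the remaining p24 genes had differences above 0. Tmed5 after estradiol became -0.11 with centred array medians. Tmed5 had 0.47, 0.01 and 0.11 (SE 0.24), with castrated arrays at 7.12, 7.53 and 7.10 above controls at 6.70, 6.93 and 6.72 (adjusted p = 0.373). Tmed1 and the dim Tmed6 had 0.09 and 0.08 after castration, 0.34 and 0.43 after estradiol, and 0.12 and 0.26 after both, and neither passed. The 0.34 of Tmed1 rests on estradiol array 1, at 6.88 against 5.69 and 5.84 on arrays 2 and 3. Its controls read 5.62 to 5.92, and its difference after estradiol was 0.05 without arrays 1 and 2.

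Sec22b, a SNARE of vesicles between the endoplasmic reticulum and the Golgi, read 9.45, 9.39 and 9.49 in controls, 8.76, 9.20 and 8.71 after castration, 9.35, 8.83 and 9.02 after estradiol, and 8.92, 8.88 and 8.73 after both. It was below the controls on every treated array and passed in no comparison (-0.55, -0.38 and -0.60; adjusted p = 0.0903, 0.164 and 0.0747). Its paralog Sec22a had 0.19, -0.30 and 0.00. The value after estradiol rests on array 1, at 5.95 against 7.28 and 7.34 on the other 2 estradiol arrays and 7.11 to 7.22 in controls, and was 0.18 without arrays 1 and 2. Among the Sec14-like genes, Sec14l1 measured 8.69, 8.63 and 8.56 in controls, 8.09, 7.88 and 8.14 after castration, 7.11, 7.74 and 8.43 after estradiol, and 8.20, 8.26 and 8.14 after both. It fell after estradiol (-0.87, adjusted p = 0.0482), a call that ended without arrays 1 and 2 (-0.20, adjusted p = 0.564), and had -0.59 and -0.43 otherwise. The other 4 Sec14-like genes, all dim, had differences between -0.17 and 0.39 and did not pass, and Sec14l3 turned from 0.11 to -0.19 after estradiol without arrays 1 and 2.

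Members varied little among control arrays and most among estradiol arrays. The median SD of a member within its group was 0.07 in controls, 0.16 after castration, 0.43 after estradiol and 0.11 after both, against 0.12, 0.16, 0.36 and 0.12 over all genes. An SD over 0.5 was found in 21 members after estradiol, in 1 after castration (Sec63, 0.64) and in 0 of the other groups. Estradiol array 1 was the lowest of its group in 29 members and array 3 the highest in 31. Castrated array 2 was the highest of its group in 26 members and the lowest in 20.

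When estradiol arrays 1 and 2 were left out, castration lowered 31 members and raised 1, Tmed5 (0.47, adjusted p = 0.046), where 6.6% of all genes fell and 10% rose. Under the combined treatment 30 fell and 0 rose (6.9% and 7.61% of all genes). The left-out arrays enter both comparisons through the shared estimate of the spread alone. In both, a larger share of the brightest 25% of genes fell than of all genes, as with all arrays. For estradiol itself the comparison then rested on array 3, taken to vary like the arrays of the other groups, and 6 members fell and 0 rose (2.27% and 2.78% of all genes). These were Ssr4 (-1.26), Sec11c (-1.25), Sec24d (-0.95), Tmed3 (-0.71), Srprb (-0.66) and Tram1 (-0.60), with adjusted p between 0.000941 and 0.0444. The other 10 estradiol calls ended, those of Sec61a1, Sec61b, Sec61g, Ssr1, Ssr3, Cope, Copz2, Tmed2, Tmed4 and Sec14l1. The median of all 52 members after estradiol moved from -0.56 to -0.31, while that of the brightest 25% of all genes moved from -0.29 to 0.02. Array 3 is the array with Semg1, Msmb and more Pbsn, and the part of this in the smaller differences was not tested.

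**Figure D3:**
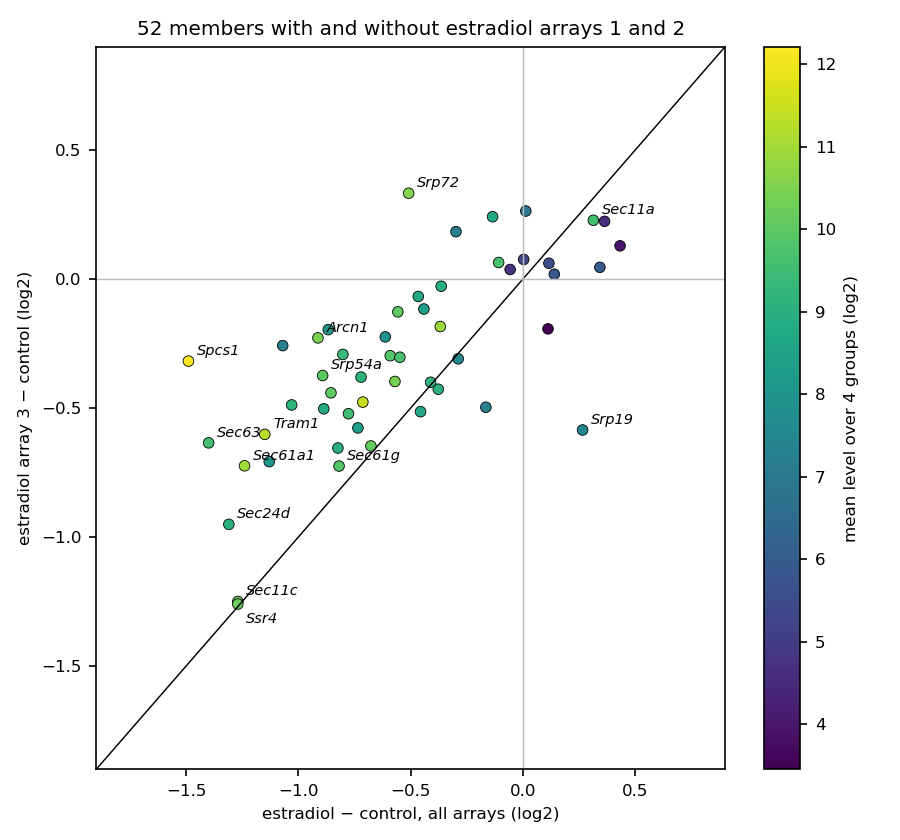
Log2 difference from control of each of the 52 members, with all 3 estradiol arrays (horizontal axis) and with estradiol array 3 alone (vertical axis), coloured by mean level; the diagonal marks equal values. Ssr4 and Sec11c lie on the diagonal near -1.3, most bright members lie above it, and 7 members change sign: Srp72, Srp19, Sec24b, Sec22a, Srp68, Sec14l3 and Sec16b.

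The treated groups were compared with each other to find whether the procedures differed in these genes. Castrated and combined rats differed in 0 members by limma, as in 0 of all 14506 genes (0% called), and 0 members had an unadjusted p under 0.05, where 153 of all genes did. Differences ran from -0.36 for Tmed5 to 0.32 for Sec61g, with a median of 0.00. Estradiol and combined rats also differed in 0 members and 0% of all genes, with 0 members and 2741 genes at an unadjusted p under 0.05. Sec24b came nearest, 0.40 ± 0.19 higher in the combined group (adjusted p = 0.27). Without estradiol arrays 1 and 2 it was 0.02 higher. Estradiol against castrated gave 0 calls again (0% of all genes), with 3 members and 3953 genes at an unadjusted p under 0.05. Tmed9 was 0.41 ± 0.16 higher after estradiol (adjusted p = 0.15), Sec14l4 0.39 lower and Sec23a 0.47 lower (adjusted p = 0.176 for both). Sec23a read 7.02 on estradiol array 1, 7.76 and 7.98 on estradiol arrays 2 and 3, and 8.02 to 8.12 after castration. These tests do not show that the treatments acted alike. Without estradiol array 3, combined against estradiol called 6 members and estradiol against castrated 8, at 28.6% and 37.3% of all genes.

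The interaction asked whether estradiol had the same effect in castrated as in intact rats. It called 1 member, Ssr4 (0.779% of all genes were called in this direction and 1.1% in either). Estradiol changed Ssr4 by -1.27 in intact rats and by 0.14 ± 0.15 in castrated rats, a difference between effects of 1.40 ± 0.21 (adjusted p = 0.0053, limma). Next came Sec61a1 (1.40 ± 0.32, adjusted p = 0.0601), Srprb (0.82 ± 0.19, adjusted p = 0.0655) and Sec61g (1.14 ± 0.28, adjusted p = 0.0793). Of the 52 members, 42 had a positive interaction, with a median of 0.53 against -0.06 over all genes. Without estradiol arrays 1 and 2 these medians were 0.21 and 0.002. A gene lowered alike in all treated groups has a positive interaction, so this count is not separate from the falls above. These values come from the same control arrays as the differences above. The number called was 16 without estradiol array 3, 6 without estradiol array 1 and 2 without arrays 1 and 2, at 11.6%, 2.68% and 2.71% of all genes called.

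Other genes of the pathway were counted on lists by function. Of all genes 2.36%, 5.48% and 2.21% fell after castration, estradiol and both. The shares without estradiol arrays 1 and 2 are given above. Whether the count of a list differed from these shares was not tested. With all arrays no gene of these lists rose against control. Without estradiol arrays 1 and 2, where 10% of all genes rose after castration, Arf3, Exoc1, Gosr1, Rab2b and Use1 did so (0.31 to 0.44, adjusted p = 0.0175 to 0.0498), and Use1 after both (0.45, adjusted p = 0.0113). Oligosaccharyltransferase, the enzyme beside the translocon that attaches sugar chains, had 4, 7 and 4 of 10 genes that fell after castration, estradiol and both, with medians of -0.71, -0.79 and -0.58. With estradiol arrays 1 and 2 left out the falls numbered 8, 3 and 7, and the median after estradiol was -0.43. Its subunit Ostc measured 9.80, 9.54 and 9.51 in controls, 7.99, 8.21 and 8.16 after castration, 6.97, 7.90 and 8.63 after estradiol, and 8.25, 8.20 and 8.38 after both, without overlap. It fell 2.82-, 3.43- and 2.52-fold (adjusted p = 0.00972, 0.00345 and 0.0211), and Rpn1, another subunit, 1.81-, 2.01- and 2.01-fold.

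Cargo and retrieval receptors had 4, 8 and 4 of 15 genes that fell, with medians of -0.35, -0.85 and -0.47. Leaving out estradiol arrays 1 and 2 gave 8, 3 and 7 falls and a median of -0.31 after estradiol. Kdelr3, a receptor that returns escaped resident proteins to the endoplasmic reticulum, read 9.66, 9.57 and 9.67 in controls, 7.38, 8.09 and 7.66 after castration, 7.52, 7.91 and 7.70 after estradiol, and 7.52, 7.74 and 7.03 after both. The controls stood far above every treated array. It fell by 1.92, 1.92 and 2.20 on the log2 scale (adjusted p = 0.000134, 0.000174 and 4.28e-05). Surf4, a receptor for soluble cargo, fell by 1.20, 1.34 and 1.09, and Lman1, a mannose-binding receptor, by 1.03, 1.34 and 1.25.

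The GTPases of coat assembly and their exchange factors had 1, 3 and 0 of 11 genes that fell, and 4, 2 and 4 without estradiol arrays 1 and 2. Sar1a, the GTPase that starts the COPII coat, fell by 0.55 after castration and by 0.80 after estradiol (adjusted p = 0.0304 and 0.00375). It had -0.51 after both (adjusted p = 0.0524). Its paralog Sar1b fell by 1.59 after estradiol (adjusted p = 0.0274). Sar1b had -0.97 after castration and -1.07 after both (adjusted p = 0.213 and 0.181), and every treated array lay below its controls. Organisers of exit sites had 1, 2 and 1 of 6, Tmem39a falling in each (2.53-, 2.69- and 2.19-fold), and 4, 1 and 3 without those arrays. Tethers, Rab GTPases and SNAREs had 0, 9 and 2 of 28. Limma gave an unadjusted p under 0.05 to 2333, 4384 and 2125 of all 14506 genes, and to 11, 20 and 12 of these 28. When estradiol arrays 1 and 2 were left out, 12, 3 and 12 of them fell and 3, 0 and 1 rose, with a median of -0.33 after estradiol in place of -0.62. Uso1, the tether that holds vesicles at the Golgi, fell by 1.49 after estradiol and by 1.05 after both (adjusted p = 0.00636 and 0.0498). After castration it had -0.985 (adjusted p = 0.0563), with arrays at 9.64 to 9.70 against 10.60 to 10.74 in controls. The exocyst, which tethers vesicles at the cell surface, had 0, 1 and 1 of 9, the gene being Exoc5, and its medians were 0.12, -0.19 and -0.08. Beside the 0 falls after castration, limma gave 2 of the 9 exocyst genes an unadjusted p under 0.05, against 2333 of all 14506 genes. Without estradiol arrays 1 and 2, 2, 0 and 3 exocyst genes fell and 1, Exoc1, rose after castration, while Exoc5 after estradiol had -0.42 (adjusted p = 0.12).

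Among 10 transcription factors known to act on secretory pathway genes, 1 fell in each comparison, where 2.36%, 5.48% and 2.21% of all genes fell. This was Creb3l2, which is held in the endoplasmic reticulum membrane until it is cleaved. It read 10.54, 10.28 and 10.31 in controls, 9.62, 9.37 and 9.77 after castration, 9.19, 9.41 and 9.78 after estradiol, and 9.61, 9.78 and 9.49 after both. Treated and control arrays did not overlap, and the differences were -0.79, -0.91 and -0.75 (adjusted p = 0.02, 0.00859 and 0.0299). With estradiol arrays 1 and 2 left out, 3, 0 and 2 of these factors fell, and Creb3l2 had -0.59 after estradiol (adjusted p = 0.0997). Xbp1, a factor known to bind the UPRE and named here after its values were seen, had 0.12, -0.42 and 0.15 and did not pass (adjusted p = 0.954, 0.315 and 0.953), and had 0.19 after estradiol without those arrays.

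**Figure D4:**
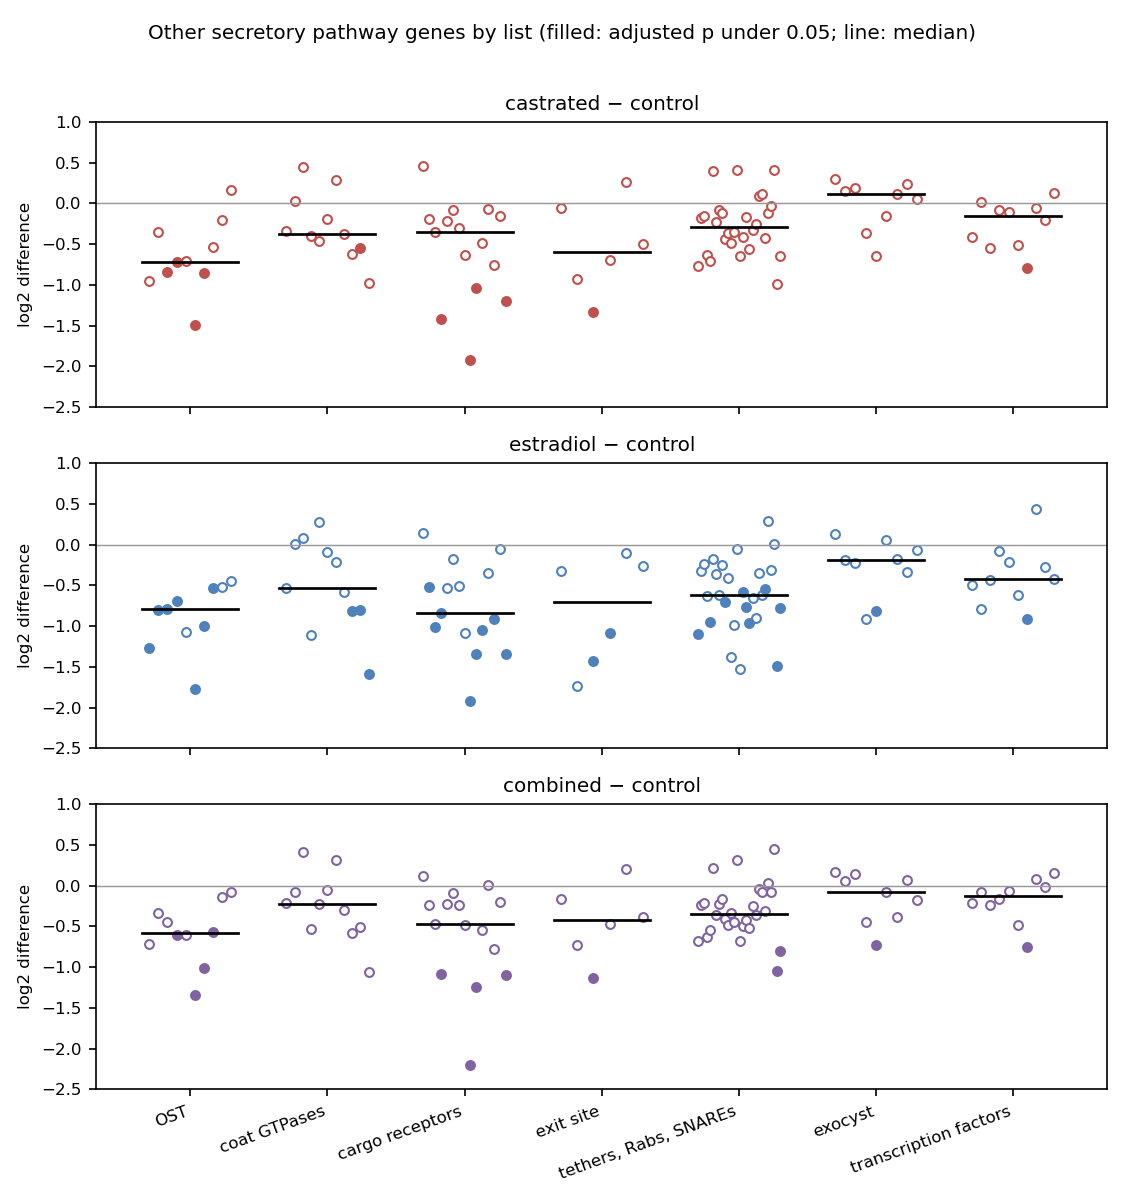
Log2 difference from control (vertical axis) of other secretory pathway genes by list after castration, estradiol and both; each point is 1 gene, filled where its adjusted p was under 0.05 (limma), and the line is the list's median. Medians lie below 0 in every list except the exocyst after castration, where the median is 0.12.

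Markers of cell types moved with these results. Of all genes 3.17%, 2.51% and 2.12% rose and 2.36%, 5.48% and 2.21% fell after castration, estradiol and both. The shares without estradiol arrays 1 and 2 are given above. Whether the count of a marker list differed from these shares was not tested. Of 11 luminal epithelial markers 7, 5 and 8 rose after castration, estradiol and both, and 1, Hoxb13, fell after estradiol. When estradiol arrays 1 and 2 were left out, 9, 3 and 8 rose, and 1 fell after both. Their mean level per array was 9.95 to 10.07 in controls, 10.70 to 10.95 after castration, 10.36 to 10.61 after estradiol and 10.68 to 10.89 after both. Of 11 macrophage markers 8, 2 and 4 rose, with array means of 6.54 to 7.02, 8.01 to 8.59, 6.96 to 8.12 and 7.55 to 8.10. Without estradiol arrays 1 and 2, 9, 8 and 9 of them rose, and their median after estradiol moved from 0.62 to 1.40. The 9 B and plasma cell markers, genes of a cell type rich in the same machinery, had array means of 5.56 to 5.68, 5.21 to 5.84, 5.49 to 5.92 and 5.66 to 5.72, which overlap. Among them Derl3, which serves the degradation of misfolded endoplasmic reticulum proteins in other secretory cells too, fell in all comparisons (-2.67, -2.24 and -1.83). Sdc1, also an epithelial gene, rose. The list drawn up as ventral prostate secretory products held 8 measured genes (Andpro, Azgp1, Msmb, Pbsn, Scgb1d2, Scgb2a1, Semg1 and Tgm4). Semg1 and Msmb among them are named above as accessory gland proteins. Array means of the list were 8.36 to 8.51 in controls, 7.42 to 7.71 after castration, 7.49, 7.60 and 9.55 after estradiol and 7.69 to 7.89 after both. These means do not describe the list evenly. After castration Pbsn and Andpro fell (-6.57 and -1.88), Azgp1 rose (2.43) and the other 5, these dim genes included, lay between -0.35 and 0.08. The list's medians were -0.25, -0.04 and -0.22. Of the list 1, 0 and 1 rose and 2, 2 and 1 fell, which became 1, 2 and 1 rises and 3, 0 and 2 falls without estradiol arrays 1 and 2. The 9.55 is estradiol array 3, with its Semg1 and Msmb. Of 8 T lymphocyte markers 1, 2 and 1 rose, with array means of 4.90 to 5.48 over all groups. After estradiol 1 of 7 smooth muscle, 1 of 6 endothelial and 1 of 7 mast cell markers fell, and none of these was called in the other comparisons. Limma called 0 of 5 basal epithelial and 0 of 7 fibroblast markers, of which 1, 1 and 2 and 0, 4 and 0 had an unadjusted p under 0.05. Of all 14506 genes 2333, 4384 and 2125 had such a p. The calls of these last lists are with all arrays. Without estradiol arrays 1 and 2 the calls of smooth muscle, endothelial and mast cell markers after estradiol ended. Some basal epithelial markers then rose after both, and a smooth muscle marker after castration. The part of these shifts in the members' results was not tested.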

How the data were processed

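Total RNA (500 ng, from 30 mg of tissue) was labelled as single-stranded cDNA and hybridised to Affymetrix arrays, per the labels' protocols. Per the submitters' processing notes the authors used Affymetrix Expression Console, without a version. Neither normalization nor log base nor build is stated there. The deposited values were read as log2 levels from their range (array medians 5.53 to 5.76), and every log2 difference rests on that.

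Of 29214 probe sets, 15310 had 1 gene symbol, 323 several and 13581 none. Of these, 1 with several symbols included a member's and was not used. The brightest probe set stood for each of 14506 genes, with no filter on dim genes, and all 52 members matched the gene table. Groups came from the sample titles. Groups were compared by limma (version 3.58.1, R 4.3.3; lmFit and eBayes, 1 mean per group over 12 arrays, 8 residual and 5.29 prior degrees of freedom; 2-sided, Benjamini-Hochberg over all genes, threshold 0.05). The procedure was tested on simulated data.

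The set of members and the lists were chosen with earlier results of these data known, although the members' rule reads symbols alone. Same-numbered castrated and estradiol arrays correlated at 0.14, 0.28 and 0.20 in their deviations from the group means, a pairing seen in the data and not given by the labels. Array values are given for up to 4 members per role that passed with the largest differences, with paralogs beside them, and up to 3 pathway genes per list. Motifs were searched as exact letters in RefSeq promoters (GRCr8). The alternatives were centred medians, quantile normalization, array weights, a trended prior, a brightness filter, mean probe sets, fewer arrays and a replicate block. Figures used matplotlib 3.10.9 in Python 3.11.15.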

Additional observations from a re-analysis of the deposited data

Results flagged for a closer look

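The effect of estradiol on Ssr4, a TRAP subunit, differed between castrated and intact rats by 1.40 ± 0.21 on the log2 scale (limma interaction test, adjusted p = 0.0053 over 14506 genes), which was the one member called. Ssr4 measured 11.34, 11.17 and 11.19 in control arrays and 10.15, 9.77 and 9.97 after estradiol in intact rats, and 9.58, 9.85 and 9.78 after castration and 9.82, 9.94 and 9.86 with estradiol added. The call was kept in all 20 alternative settings run.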

How the results depend on the processing

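No alternative turned a member that had passed against control. Over 42 calls, the interaction's included, and all alternatives, 697 tests kept the call and 184 lost it, 17, 15 and 16 calls remaining without control 1, 2 or 3. After castration, estradiol and both, the number of members called (12, 16 and 13) was 32, 6 and 30 without estradiol arrays 1 and 2. It was 26, 2 and 36 with only the compared arrays fitted, with array weights 36 and 41 for castration and both, and 10 for estradiol after quantile normalization. The F test (12) called 38 with array weights and 27 without estradiol arrays 1 and 2. The interaction (1) called 16 with array weights, 3 among genes above the median level and 2 without those arrays, and estradiol against castrated (0) called 1 with array weights. Leaving out 1 array at a time gave ranges of 6 to 24, 5 to 34 and 3 to 28 against control, 2 to 28 for the F test, 1 to 16 for the interaction, 0 to 6 for combined against estradiol and 0 to 8 for estradiol against castrated.

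Signs against control turned in members that had not passed. After estradiol 7 turned without estradiol arrays 1 and 2, Sec22a (0.18), Srp68 (0.06), Sec14l3 (-0.19) and Sec16b (0.04) beside those that follow. Quantile normalization turned Srp14 (0.05), Srp68 (0.12), Sec14l3, Sec14l4 and Sec14l5 after estradiol, and Sec22a and Srp68 after both. Centring turned Sec14l3, Sec14l4, Sec14l5 and Tmed5 after estradiol and Sec22a after both. Sec24b after estradiol became 0.075 after quantile normalization, and 0.24 without estradiol arrays 1 and 2. Srp19 became -0.58 and Srp72 0.33 without these arrays, and Sec11a after both 0.015 after quantile normalization. Left-out arrays gave ranges of -0.32 to 0.11 for Sec24b, -0.27 to 0.69 for Srp19 and -0.93 to 0.14 for Srp72 after estradiol, -0.11 to 0.037 for Sec11a after both and -0.049 to 0.078 for Srp72 after castration. Tmed1 and Tmed5 were among the members not followed through single left-out arrays. The cause of the turned signs was not tested.

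Centring array medians shifted the all-gene median after estradiol from 0.07 to -0.05, and 12, 22 and 14 members fell. Replicate numbers did not pair the arrays across all groups: correlations of same-numbered arrays ran from -0.16 to 0.28, 7 of 18 were over 0.1, and 8 of 12 arrays correlated best with their own number. With the replicate block 12, 19 and 11 members were called against control. For estradiol against castrated, the one pair of groups with all 3 correlations over 0.1, the block called 0 members, as without it. With 3 arrays per group, small differences of dim members could not be resolved.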
